A study of Homo sapiens with 131 samples.

Results

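The mRNAs of 9 genes of the Wnt signalling pathway were followed through every deposited readout of a study of processing bodies in human cells: WNT16, DKK1, LRP6, RNF43, APC, AXIN1, AXIN2, CTNNB1 and TCF7L2. They are 9 genes of the 12997 listed in the editing tables, and were chosen by gene name, WNT16 because its level differed between uninduced lines and DKK1 because of its tail length. Those 2 measures are therefore described without a test. All 9 were listed in HCT116 tables and 7 in HEK293T tables, where WNT16 and DKK1 were not listed.

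The study fused an RNA-editing enzyme to proteins of processing bodies and read which mRNAs were edited. HCT116 is a colorectal carcinoma line known for active β-catenin signalling, and HEK293T is an embryonic kidney line. Induced HCT116 lines carried ADAR2dd, the catalytic domain of an adenosine deaminase (A-to-I editing), or APOBEC1, a cytidine deaminase (C-to-U editing), fused to either end of DDX6, LSM14A, 4E-T, EDC3 or PATL1. APOBEC1 was also fused to EDC4, DCP2 and CNOT proteins. Each editor without a fusion partner served as its control, with 2 libraries of ADAR2dd-control and 3 of APOBEC1-control. Lines with both fusions (APOBEC1-DDX6 with LSM14A-ADAR2dd) and their controls with both unfused editors had 2 libraries per group in HCT116, in HEK293T and in a further HCT116 set labelled illumina. HEK293T lines labelled LSM14A-TRIBE-ID were given rapamycin for 0, 15, 30, 60 or 120 min, and lines labelled DDX6-STAMP-ID for 0, 15, 30 or 120 min, with 2 libraries per time. Uninduced HCT116 lines had 10 libraries: 3 of APOBEC1-control, 3 of APOBEC1-DDX6, 2 of ADAR2dd-control and 2 with both unfused editors. The TPM columns of the last line name the 2 editors but not the word control, and were matched to it by those names. Polysome and total RNA of wild-type and DDX6-knockout cells came from 16 libraries, and long reads from 1 nanopore library of the dual fusion per cell line. Each construct is a line of its own, so construct and line cannot be told apart. The labels do not say whether lines are clones or whether libraries came from separate cultures, so p-values measure the spread between these libraries, which may be technical.

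Wnt ligands bind Frizzled receptors and the co-receptor LRP6. Without them, a destruction complex built on APC and the AXIN scaffolds marks β-catenin, the product of CTNNB1, for degradation; with them, β-catenin accumulates and activates target genes together with TCF factors such as TCF7L2. DKK1 is a secreted inhibitor that binds LRP6, RNF43 removes Frizzled receptors from the surface, and AXIN2, RNF43 and DKK1 are themselves known targets of the pathway. Processing bodies are cytoplasmic granules that hold mRNAs with translational repressors and decay factors, among them the helicase DDX6 and its partners LSM14A, 4E-T, EDC3 and PATL1.

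The upstream sequences of WNT16 and DKK1 are shown because these are the members whose read level was lower in each of 10 APOBEC1 fusions. Those 10 comparisons share the APOBEC1-control line. WNT16 lies at chr7:121325367-121341104 and DKK1 at chr10:52314281-52317657. The 250 bases before an annotated start are given on the plus strand, from RefSeq on GRCh38.p14, at chr7:121328750-121328999 for WNT16, inside the gene's span, and at chr10:52314031-52314280 for DKK1. Capitals mark TCAAAG, the core letters recognised by TCF factors, or its reverse complement CTTTGA.
WNT16: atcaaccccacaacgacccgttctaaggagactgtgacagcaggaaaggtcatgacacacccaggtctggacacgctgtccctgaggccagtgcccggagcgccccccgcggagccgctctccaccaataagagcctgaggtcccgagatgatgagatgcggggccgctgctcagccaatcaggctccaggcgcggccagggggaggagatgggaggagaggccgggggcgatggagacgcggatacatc
DKK1: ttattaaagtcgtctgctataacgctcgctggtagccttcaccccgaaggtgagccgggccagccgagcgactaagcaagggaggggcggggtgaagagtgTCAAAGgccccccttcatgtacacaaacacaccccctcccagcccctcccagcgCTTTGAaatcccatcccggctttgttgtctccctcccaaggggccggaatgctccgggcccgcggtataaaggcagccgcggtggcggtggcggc
The DKK1 window held 2 matches, starting 149 and 95 bases before the start, and the WNT16 window held none. Of 35116 RefSeq windows of 250 bases, 11.2% held the motif on either strand. Of 11 windows of 7 members (LRP6 and AXIN2 had no entry), 1 held it, that of DKK1.

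The 83 editing libraries held 6259071 to 13432692 reads in listed genes. The editing level of a gene is its edited reads as a percentage of its reads, and the read level is in rpm, its reads scaled to the library's total of listed reads. Intervals, bounds and limits given below cover counting error only. As a check of the cell lines, the listed genes of a set of 8 colon epithelial markers summed to 765 to 778 rpm in the HCT116 libraries with both unfused editors, against 38.7 to 43.6 in HEK293T. Of these, CDX2 was higher in HEK293T, and VIL1, CEACAM5 and KRT20 were not listed in either line. A set of 6 HEK293T markers summed to 23.6 to 25.2 in HCT116 and 645 to 650 in HEK293T. Of these, PAX2 was higher in HCT116 and the others were not listed there. In reads per gene, 15 of 41 replicate pairs agreed within counting noise (chi-square over genes), while edited reads differed in each pair (chi-square of 1.10 to 2.39 per degree of freedom), so all libraries were kept. Of the 3 APOBEC1-DDX6 libraries, only 2 and 3 agreed in reads, and counting both as 1 ended 1 member call, marked below. Comparisons of one editor share its control libraries, so their results are not independent of each other.

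Editing of the members was tested per gene with edgeR's quasi-likelihood test on edited reads, with reads as offset and Benjamini-Hochberg adjustment over all genes tested. Genes entered the test from 20 reads per library and 10 edited reads per comparison. In the 10 replicated ADAR2dd fusions, members were edited more than in the ADAR2dd-control in 21 of 44 member tests and less in 0, where 49.2% of all gene tests were called higher and 0.0944% lower. In the 10 replicated APOBEC1 fusions the count was 19 higher and 1 lower of 58, against 15.3% of all gene tests called higher and 2.35% lower. With both fusions 31 of 38 member tests were higher and 0 lower, against 77.2% and 0.157% of all gene tests. These counts include members whose control held fewer than 10 edited reads, which only edited fusion reads could bring to the test. Of the 21, CTNNB1 gave 7 and DKK1 3 in this way. Such calls are no support by themselves, and the same filter applied to all genes. By single fusion, 6 of 6 members were higher in LSM14A-ADAR2dd (93.1% of all genes), 6 of 7 in APOBEC1-DDX6 (52.0%), and 87.9% of all genes were higher in 4E-T-ADAR2dd. The median log2 ratio of the members in APOBEC1-DDX6 was 2.74 and that of all genes 1.59. The members' shares therefore lay near those of all genes for ADAR2dd and for both fusions. In APOBEC1 fusions the share was higher, at 19 of 58 against 15.3%, but the 19 calls became 9 with DESeq2 and 9 with limma on log2 scores. The results are given below by single member.

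WNT16, a secreted Wnt ligand, had the widest spread of mRNA level between lines. In uninduced libraries it stood at 164, 168 and 174 TPM in APOBEC1-control, at 152 and 153 with both unfused editors and at 68.2 and 74.1 in ADAR2dd-control. In the 3 libraries of the APOBEC1-DDX6 line it stood at 1.35, 1.74 and 2.02 TPM. The APOBEC1-DDX6 line was thus far below the other lines, with no overlap, already without induction. These values chose the gene and carry no test. In bulk libraries such as these, fewer cells with the mRNA and less mRNA per cell cannot be told apart.

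**Figure D1:**
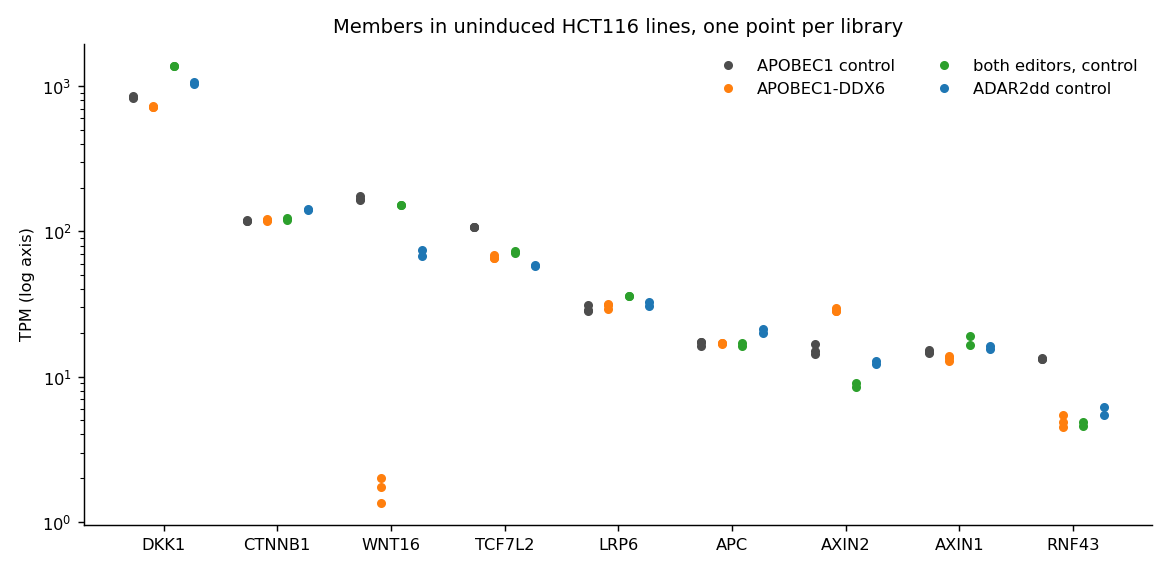
TPM (log axis) of the 9 members in 10 uninduced HCT116 libraries, 1 point per library, coloured by line. WNT16 sits at 1.35 to 2.02 TPM in APOBEC1-DDX6 and at 68.2 to 174 TPM in the other 3 lines, while CTNNB1 stays between 118 and 142 TPM in all 10 libraries.

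After induction of the same lines the WNT16 read level was 111, 112 and 112 rpm in APOBEC1-control. It was 0.401, 0.556 and 0.498 in APOBEC1-DDX6, from 5, 6 and 5 reads. Of the other replicated APOBEC1 fusions, LSM14A-APOBEC1 was lowest, at 5.08 and 4.15, and DCP2-APOBEC1 highest, at 51.3 and 47.0. Each of the 10 fusions was thus below all 3 control libraries. The fitted log2 ratios ran from -7.95 ± 0.11 (SE) in APOBEC1-DDX6 to -1.12 ± 0.05 in DCP2-APOBEC1, each called lower by edgeR on reads. APOBEC1-DDX6 and APOBEC1-control are among the lines whose uninduced levels chose the gene, so the call between them is no separate support. All 10 ratios rest on the same control line, and whether it stood high was not tested. Over the 10 fusions, 49 member tests of read level were called lower and 28 higher of 90, against 36.4% and 36.3% of all gene tests. WNT16 gave 10 of the 49. Among 7 APOBEC1 fusions with 1 library each, the level ranged from 0.319 in APOBEC-DCP2 to 107 in CNOT1-R-APOBEC1. For CNOT1-R-APOBEC1 and CNOT10-APOBEC1 the sample records and the column names disagree on which is which; the column names were followed here and below.

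The ADAR2dd lines started from a lower WNT16 level. ADAR2dd-control held 16.0 and 14.8 rpm and the control with both editors 17.5 and 16.5, against 112 in APOBEC1-control. Uninduced, the line with both unfused editors had been close to APOBEC1-control in TPM, while its induced read level was several fold below; TPM and rpm are different units and this contrast was not tested. WNT16 was higher than ADAR2dd-control in ADAR2dd-4E-T (34.9 and 33.8), ADAR2dd-DDX6 (32.6 and 30.5), ADAR2dd-LSM14A (38.2 and 38.5), ADAR2dd-PATL1 (40.2 and 40.3) and PATL1-ADAR2dd (37.1 and 37.3). These 5 log2 ratios lay between 1.06 and 1.35 and passed. Over the ADAR2dd fusions, 24 member tests of read level were called higher and 15 lower of 87, against 17.2% and 17.3% of all gene tests. The other 5, 4 of them with the protein before the editor, lay between -0.35 and 0.23 and did not pass. With both fusions in HCT116 the level was 0.650 and 0.416 against 17.5 and 16.5 (log2 ratio -5.01 ± 0.22), and in the illumina set 0.209 and 0.329 against 13.0 and 12.5 (-5.54 ± 0.32). Over the dual lines 10 member tests of read level were called lower of 24, against 35.0% of all gene tests. The HCT116 lines that hold APOBEC1-DDX6, alone or with the second fusion, were thus the lowest of the replicated lines for WNT16. APOBEC1-DDX6 and the control with both editors are among the lines whose uninduced levels chose the gene. This order is therefore no separate support.

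With so few reads, editing of WNT16 could rarely be tested. It was edited more than in APOBEC1-control in APOBEC1-4E-T, with 4 of 167 and 3 of 162 reads against 4 of 1092, 0 of 1085 and 2 of 1054 (log2 ratio 3.40 ± 0.96, adjusted p = 0.0294). The call was lost in each of the 3 fits that could be run without a library (fusion library 2, control library 2 or control library 3), at 2.84 to 3.59. In APOBEC1-DDX6, 0 of 5, 0 of 6 and 0 of 5 reads were edited, too few to measure.

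**Figure D2:**
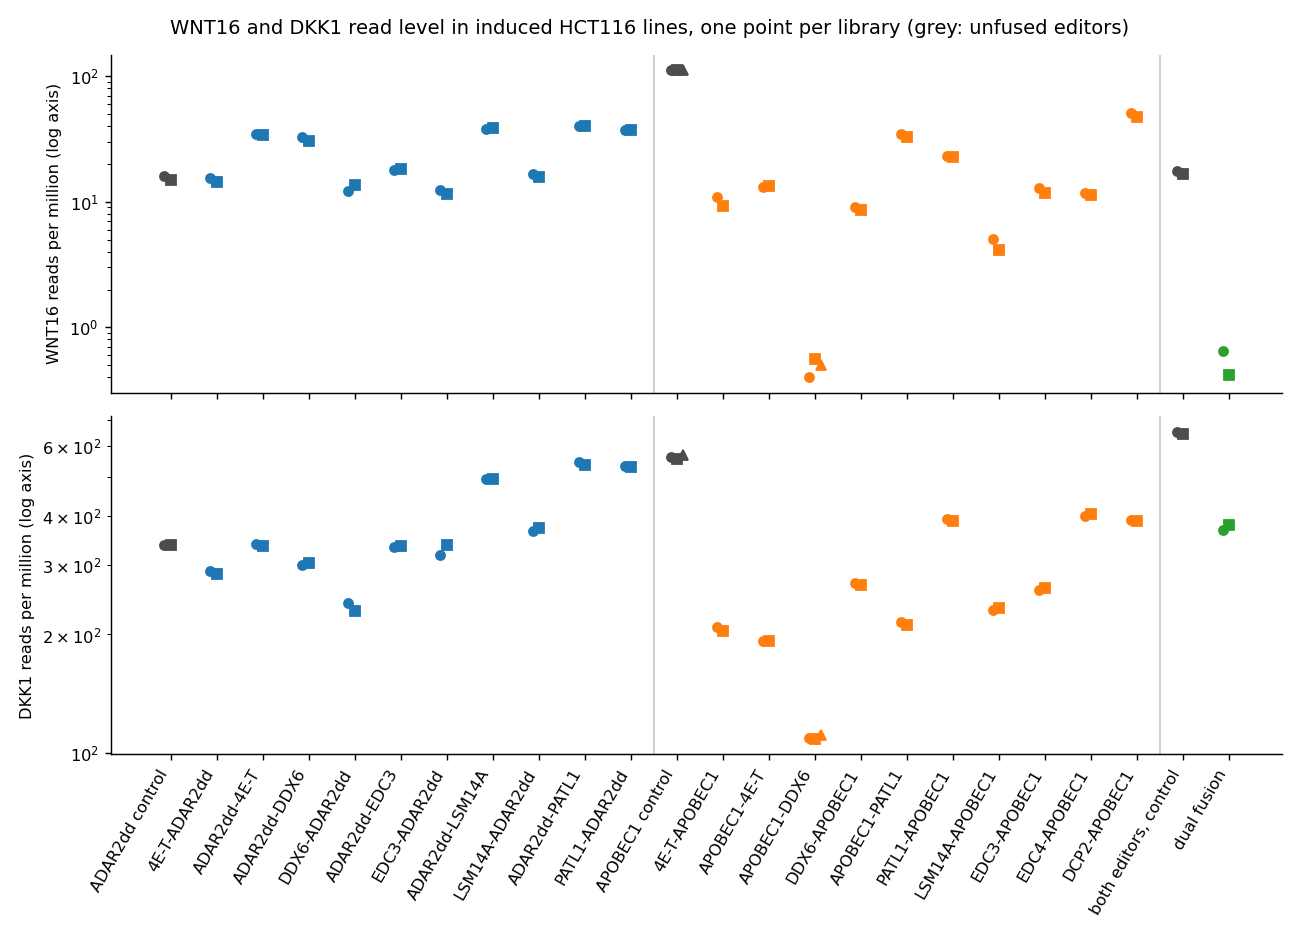
Read level in rpm (log axes) of WNT16 and DKK1 in induced HCT116 lines, 1 point per library, unfused editors in grey. WNT16 falls from 111 to 112 in APOBEC1-control to 0.401 to 0.556 in APOBEC1-DDX6, and DKK1 from 557 to 568 to 109 to 111.

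DKK1 had the highest level of the members, at a mean of 956 TPM over the 10 uninduced libraries. Uninduced APOBEC1-control held 835, 843 and 861 TPM, APOBEC1-DDX6 718, 719 and 725, ADAR2dd-control 1042 and 1067, and the line with both editors 1373 and 1380. The 4 lines did not overlap. Against APOBEC1-control, DKK1 was lower in APOBEC1-DDX6 (log2 difference of TPM + 1 of -0.23 ± 0.02) and higher in ADAR2dd-control (0.32 ± 0.02) and with both editors (0.70 ± 0.02), all past limma's adjusted threshold. In limma's fits the median of all genes moved by 0.01, 0.10 and 0.13 in these lines, and 34.1% of all gene tests were called higher and 19.5% lower. Of the 24 member tests other than WNT16, 7 were higher and 9 lower.

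After induction DKK1 held 562, 557 and 568 rpm in APOBEC1-control and 109, 109 and 111 in APOBEC1-DDX6. The 10 APOBEC1 fusions were each below the 3 control libraries, with log2 ratios from -2.49 ± 0.03 in APOBEC1-DDX6 to -0.46 ± 0.03 in DCP2-APOBEC1, all called by edgeR. These 10 ratios share the APOBEC1-control line. The gap between APOBEC1-DDX6 and its control was wider induced than uninduced, in different units and untested. The ADAR2dd fusions went both ways, with DKK1 higher in 4 (ADAR2dd-PATL1 0.65, PATL1-ADAR2dd 0.63, ADAR2dd-LSM14A 0.52 and LSM14A-ADAR2dd 0.17) and lower in 3 (DDX6-ADAR2dd -0.52, 4E-T-ADAR2dd -0.23 and ADAR2dd-DDX6 -0.13). The LSM14A-ADAR2dd call was lost without either control library.

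C-to-U editing of DKK1 was measurable already with the unfused editor. In APOBEC1-control 28 of 5514, 25 of 5420 and 21 of 5346 reads were edited (0.508%, 0.461% and 0.393%). In APOBEC1-DDX6 48 of 1361, 36 of 1174 and 39 of 1119 were (3.53%, 3.07% and 3.49%). The groups did not overlap, and the log2 ratio was 2.88 ± 0.25 (adjusted p = 2.67e-12). Among the APOBEC1 single-editor lines, APOBEC1-DDX6 thus had the lowest DKK1 read level and the highest edited share of DKK1.

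4E-T-APOBEC1 reached 2.60% and 2.08% (2.36 ± 0.25), EDC3-APOBEC1 1.85% and 1.61% (1.92 ± 0.25) and APOBEC1-PATL1 1.52% and 0.993% (1.46 ± 0.31). LSM14A-APOBEC1 and DDX6-APOBEC1 also passed, at 1.12 and 1.17. Of these, APOBEC1-PATL1 lost its call without fusion library 1 (1.12), LSM14A-APOBEC1 without fusion library 2 (1.02) and DDX6-APOBEC1 without any of its 5 libraries (1.03 to 1.31). APOBEC1-4E-T (0.450% and 0.511%), PATL1-APOBEC1 (0.437% and 0.258%) and EDC4-APOBEC1 (0.276% and 0.615%) did not pass.

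DCP2-APOBEC1 went the other way, with 0 of 4264 and 0 of 5216 DKK1 reads edited. A count of 0 in its 9480 reads allows a share of up to 0.0316%, so the control's pooled 0.455% was at least 14.4-fold higher. DCP2 is the catalytic subunit of the decapping enzyme, and a link to that role was not tested. The library-wide edited share in DCP2-APOBEC1 was 0.200% and 0.172%, against 0.309% to 0.315% in APOBEC1-control. The change in DKK1 was called (edgeR, adjusted p = 1.21e-06), where 7.03% of all genes tested in DCP2-APOBEC1 were called lower. Among the members' fusion comparisons on edited reads it was the only call of a decrease. Of the single-library lines, APOBEC-DCP2 had 0 of 1539 edited reads, APOBEC1-LSM14A 0 of 1762, APOBEC1-CNOT10 0 of 2500 and CNOT1-R-APOBEC1 1 of 5355. APOBEC-EDC3, APOBEC1-EDC4 and CNOT10-APOBEC1 are not given here, so these values do not stand for all single-library lines.

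A-to-I editing of DKK1 was not detected with the unfused editor, in 0 of 3860 and 0 of 3681 reads. LSM14A-ADAR2dd had 20 of 2369 and 34 of 3707 (0.844% and 0.917%), at least 22.3-fold higher than 3 reads over the pooled control. PATL1-ADAR2dd had 0.268% and 0.169%, at least 5.51-fold higher, and 4E-T-ADAR2dd 0 of 2782 and 10 of 2809, at least 4.50-fold higher from 1 library alone. These 3 were the only ADAR2dd fusions in which DKK1 could be tested, and all 3 were called; with no edited reads in the control, only edited reads in the fusion could bring the gene to the test. The other 7 fusions held 0 or 1 edited DKK1 read per library.

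With both fusions, DKK1 was edited C-to-U in 2.78% and 3.47% of reads against 0.230% and 0.402% (log2 ratio 3.28 ± 0.29). In the illumina set it was 3.62% and 3.42% against 0 of 9283 and 0 of 8983 reads, at least 214-fold higher than 3 reads over the pooled control. The fusion libraries of the 2 sets were close, while the controls differed, with 50 edited of 15597 reads in the first and 0 of 18266 in the illumina set. A-to-I editing was 0.683% and 0.857% against 0 of 7393 and 0 of 8204, at least 40.0-fold higher. In the illumina set the C-to-U call was lost without either fusion library (11.07 and 11.17).

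LRP6, the Wnt co-receptor (chr12:12116025-12267044), was listed and tested in all fusion comparisons. Its A-to-I editing was 0.227% and 0.287% in ADAR2dd-control, 5.23% and 4.12% in LSM14A-ADAR2dd, and 2.20% and 1.83% in 4E-T-ADAR2dd. The log2 ratios were 4.13 ± 0.35 and 2.94 ± 0.42, and ADAR2dd-DDX6 (1.72) and PATL1-ADAR2dd (1.70) also passed, each lost without its fusion library 1 (1.30 and 1.23). C-to-U editing was already 0.881%, 0.811% and 0.779% in APOBEC1-control. It rose to 2.24% and 1.98% in LSM14A-APOBEC1 (1.35 ± 0.31), while the 0.75 ± 0.32 in APOBEC1-DDX6 (1.34%, 1.27% and 1.55%) was lost without any 1 of the 6 libraries (0.66 to 0.80) and with libraries 2 and 3 counted as 1. Among single fusions LRP6 thus had its highest editing in LSM14A-ADAR2dd. With both fusions it was called in all 6 comparisons, at 1.94% to 9.27% per fusion library, and the illumina C-to-U call (2.35) was lost without either fusion library (2.23 and 2.46).

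RNF43, the ubiquitin ligase that turns over Frizzled (chr17:58352500-58417534), had the lowest mean TPM of the members over the 10 libraries, though not in APOBEC1-DDX6, where WNT16 was lower, and was nearly always too sparse for an editing test. Uninduced it held 13.2 to 13.5 TPM in APOBEC1-control and 4.52 to 6.16 in the other 3 lines, without overlap. Its log2 differences of TPM + 1 were -1.26 ± 0.07 in APOBEC1-DDX6, -1.07 ± 0.08 in ADAR2dd-control and -1.32 ± 0.08 with both editors, all called by limma. Induced, it held 10.8, 12.2 and 11.9 rpm in APOBEC1-control and 1.52, 1.20 and 0.597 in APOBEC1-DDX6, from 19, 13 and 6 reads (log2 ratio -3.47 ± 0.19). Of the 10 APOBEC1 fusions 8 were called lower, and APOBEC1-PATL1 (0.40) and DCP2-APOBEC1 (0.47) higher. All 10 share the APOBEC1-control line, whose uninduced level lay above the other 3 lines.

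APC, the large scaffold of the destruction complex (chr5:112707498-112846239), was edited more in APOBEC1-DDX6, at 3.12%, 3.30% and 2.78% against 0.693%, 0.365% and 0.262% (2.74 ± 0.41, adjusted p = 4.56e-07). LSM14A-APOBEC1 reached 2.09% and 2.01% (2.16 ± 0.46), and LSM14A-ADAR2dd 4.01% and 4.61% against 0.703% and 0.203% (3.17 ± 0.43). The groups did not overlap in any of these 3. Calls in 4E-T-APOBEC1 (1.65) and ADAR2dd-DDX6 (1.57) were each lost without any fusion library, among others, at 1.22 to 1.97 and 1.00 to 1.87. With both fusions APC was called in all 6 comparisons, at 1.91% to 5.22% per fusion library, and the illumina C-to-U call (2.51) was lost without either fusion library (2.44 and 2.58).

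AXIN1, a limiting scaffold of the destruction complex (chr16:287440-352723), was edited A-to-I in 10.9% and 8.99% of reads in LSM14A-ADAR2dd and in 2.20% and 6.86% in 4E-T-ADAR2dd, against 0.377% and 0.644%. The log2 ratios were 4.21 ± 0.47 and 3.13 ± 0.56. Its C-to-U editing went to no call in any of 10 APOBEC1 fusions (log2 ratios -1.71 to 0.40) or in the dual lines, where A-to-I editing was called in all 3 sets. In this test AXIN1 was thus called higher with the adenosine editor alone, which does not show that the editors differ; relative to library-wide editing, described below, 2 C-to-U comparisons were called lower.

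AXIN2, the inducible scaffold and a target of the pathway (chr17:65528563-65561648), had 92 to 495 reads per library in replicated lines and 5 testable fusion comparisons. In APOBEC1-DDX6 7 of 233, 3 of 185 and 5 of 172 reads were edited against 1 of 155, 1 of 179 and 0 of 160 (2.46 ± 0.93, adjusted p = 0.0242). The call was lost without control library 3, fusion library 1 or fusion library 3 (1.96 to 2.37). With both fusions in HCT116 14 of 347 and 10 of 330 reads were edited A-to-I against 0 of 354 and 1 of 398, called at 4.41 ± 0.94. In both comparisons the control held fewer than 10 edited reads, so only edited fusion reads could bring AXIN2 to the test. These calls are therefore no support. In uninduced cells AXIN2 was higher in APOBEC1-DDX6, at 28.2 to 29.6 TPM against 14.4 to 16.7 (0.87 ± 0.06), but its induced read level there was 17.1 to 18.7 against 15.8 to 18.4 rpm and was not called.

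CTNNB1, which encodes β-catenin (chr3:41199505-41240443), had almost no edited reads with the unfused editors in HCT116. ADAR2dd-control had 1 of 7716 and 0 of 7466 reads edited, and LSM14A-ADAR2dd 292 of 4303 and 459 of 6738 (6.79% and 6.81%). The pooled ratio was 1033 (95% exact counting interval 185 to 40842), with adjusted p = 2.19e-14. This was the highest A-to-I level of CTNNB1 among the single-editor lines.

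The other ADAR2dd fusions were all lower. 4E-T-ADAR2dd (0.863% and 0.948%), ADAR2dd-DDX6 (0.820% and 0.885%) and DDX6-ADAR2dd (0.742% and 0.853%) came next, and the range of ADAR2dd-DDX6 overlapped those of the other two. ADAR2dd-LSM14A (0.331% and 0.320%), PATL1-ADAR2dd (0.377% and 0.224%) and ADAR2dd-EDC3 (0.185% and 0.0652%) were below these. ADAR2dd-4E-T and ADAR2dd-PATL1 had 0 edited reads in both libraries, of 10954 and 12308 pooled reads, and EDC3-ADAR2dd had 0 of 7075 and 5 of 7228. The end of the protein at which the editor sat therefore went with different levels for 4E-T, LSM14A and PATL1, a difference between lines that was not tested. The 7 fusions that passed the filter were all called, but with 1 edited read in the control only edited fusion reads could bring CTNNB1 to the test, so that count is no support. The ADAR2dd-EDC3 call was lost without either control library (3.09 and 6.04).

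C-to-U editing of CTNNB1 was seen mainly in APOBEC1-DDX6, with 59 of 8329, 71 of 7339 and 44 of 6732 reads (0.708%, 0.967% and 0.654%). APOBEC1-control had 0 of 6010, 0 of 5888 and 0 of 5886, so the pooled ratio was at least 46.0-fold. LSM14A-APOBEC1 had 15 of 8106 and 15 of 8267 (0.185% and 0.181%), at least 10.9-fold. Both were called (edgeR, adjusted p = 1.65e-12 and 6.60e-05), and the other 8 APOBEC1 fusions held 0 to 4 edited reads per library and did not reach the filter. With 0 edited reads in the control, only edited fusion reads could bring CTNNB1 to this test, so these calls are no support.

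**Figure D3:**
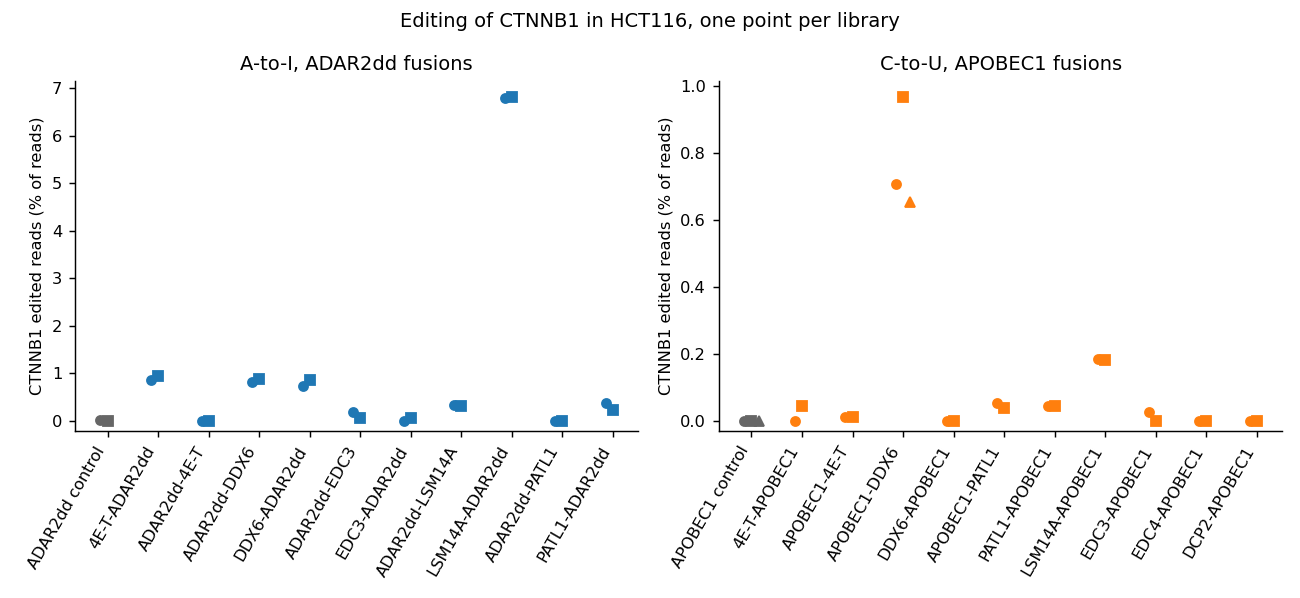
Edited reads of CTNNB1 as a percentage of its reads in HCT116, 1 point per library; left, A-to-I with ADAR2dd fusions; right, C-to-U with APOBEC1 fusions on its own scale; grey, unfused editors. LSM14A-ADAR2dd stands at 6.79% and 6.81%, and APOBEC1-DDX6 at 0.654% to 0.967%.

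The level of CTNNB1 moved little beside its editing in HCT116, but it fell by 0.68 ± 0.03 on the log2 scale with both fusions in HEK293T. Uninduced it held 119 TPM in each APOBEC1-control library, 118 to 121 in APOBEC1-DDX6, and only ADAR2dd-control was called, at 140 and 142 TPM (0.25 ± 0.02). Over the 20 single-editor fusions the log2 ratio of its read level lay between -0.22 and 0.22. With both fusions CTNNB1 was edited A-to-I in 5.85% and 5.89% of reads against 0 of 7948 and 0 of 8581 (at least 324-fold) and C-to-U in 0.522% and 0.309% against 0 in the same reads (at least 23.0-fold). The illumina set gave 6.69% and 5.79% A-to-I and 0.882% and 0.729% C-to-U, against 0 and 0 and against 0 and 0.0303%. That C-to-U call was lost without either fusion library (5.44 and 5.71).

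TCF7L2, the transcription factor that carries β-catenin to its target genes (chr10:112950247-113167678), was edited C-to-U in 23 of 1353, 34 of 1143 and 20 of 1074 reads in APOBEC1-DDX6 (1.70%, 2.97% and 1.86%). APOBEC1-control had 2 of 1341, 1 of 1255 and 1 of 1287, and the log2 ratio was 4.27 ± 0.53 (adjusted p = 1.20e-08). 4E-T-APOBEC1 followed at 1.39% and 1.50% (3.69 ± 0.58). Both stood clear of the control libraries.

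APOBEC1-PATL1 (2.37) and LSM14A-APOBEC1 (2.48) were called too, but lost the call without single libraries: control library 2 or either fusion library for the first (2.24 to 2.40) and control library 2 or 3 for the second (2.32 and 2.34). A-to-I editing was 2.35% and 1.38% in 4E-T-ADAR2dd and 1.92% and 1.55% in LSM14A-ADAR2dd against 0.211% and 0.106% (3.43 ± 0.71 and 3.32 ± 0.72). The call in ADAR2dd-DDX6 (2.21) was lost without fusion library 1 or either control library, at 1.83 to 2.72. In uninduced cells TCF7L2 held 107 to 108 TPM in APOBEC1-control and 57.8 to 73.4 in the other 3 lines, called lower in each (-0.57 to -0.87). With both fusions in HCT116 it was edited A-to-I in 2.54% and 2.17% against 0.219% and 0.0917% (3.88 ± 0.61) and C-to-U in 1.90% and 1.85% against 0.548% and 0.275% (2.20 ± 0.51). In the illumina set the C-to-U shares were 0.931% and 3.05% against 0.696% and 0.499%, and that call (1.69) was lost without either fusion library (0.62 and 2.32).

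In TPM, which is per length, the order of the uninduced means was DKK1 (956), CTNNB1 (124), WNT16 (95.8), TCF7L2 (78.4), LRP6 (31.5), APC (17.7), AXIN2 (17.5), AXIN1 (15.2) and RNF43 (7.59). The range of DKK1 over the 10 libraries (718 to 1380) overlapped no other member, and that of WNT16 (1.35 to 174) overlapped every member but DKK1. CTNNB1 (118 to 142) and TCF7L2 (57.8 to 108) did not overlap each other, and LRP6 (28.3 to 36.0) overlapped AXIN2 (8.49 to 29.6) besides WNT16. APC, AXIN2 and AXIN1 could not be put in order, and RNF43 (4.52 to 13.5) overlapped AXIN2 and AXIN1.

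Because some fusions raised editing of most genes, a second fit added each library's own edited share to the offset. The library-wide share was 0.232% in both ADAR2dd-control libraries and 4.90% to 4.96% in LSM14A-ADAR2dd, and 0.309% to 0.315% in APOBEC1-control against 1.27% to 1.36% in APOBEC1-DDX6. Relative to it, members were called above in 25 tests and below in 7 over fusions and times, where 7.29% and 5.95% of all gene tests were called. By series, 6 were above and 1 below of 44 member tests in ADAR2dd fusions, 8 and 3 of 58 in APOBEC1 fusions, 8 and 2 of 38 with both fusions, 3 and 1 of 28 in LSM14A-TRIBE-ID and 0 of 15 in DDX6-STAMP-ID. CTNNB1 accounted for 16 of the 25, in 6 ADAR2dd fusions (3.19 to 5.56), APOBEC1-DDX6 (8.11), LSM14A-APOBEC1 (6.19), 5 dual comparisons and 3 rapamycin times. Of these 16, only APOBEC1-DDX6 and the 60 and 120 min times kept the call in every fit that left out 1 library. With limma on log2 scores the direction turned in 4E-T-ADAR2dd (-0.13) and PATL1-ADAR2dd (-0.30). The CTNNB1 fusion comparisons called here had controls at or near 0 edited reads, so their fitted values are no estimate of size. Only edited fusion reads could bring CTNNB1 to those fits, so these calls are no support.

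DKK1 was above the library in 6 comparisons: 4E-T-APOBEC1 (1.48), EDC3-APOBEC1 (1.89), APOBEC1-DDX6 (0.81), both HCT116 dual comparisons (A-to-I turned to -1.04 with limma on log2 scores) and the illumina C-to-U set. The EDC3-APOBEC1 call was the only one of these to hold in every fit without a library. For dual A-to-I and illumina C-to-U the control held no edited DKK1 reads, so only edited fusion reads could bring it to those fits. 4E-T-APOBEC1 fell to 1.35 and APOBEC1-DDX6 to 0.74 without fusion library 1, below the threshold. TCF7L2 was above in 4E-T-APOBEC1 (2.84, lost without either fusion library) and APOBEC1-DDX6 (2.28), and DKK1 below in DCP2-APOBEC1. WNT16 was above in APOBEC1-4E-T (3.11), a call lost in each of 3 fits without a library. APC, AXIN1, AXIN2 and LRP6 were called above the library in 0 comparisons and below in 6 together. Of these 6 only LRP6 in APOBEC1-DDX6 (-1.31 ± 0.34, adjusted p = 0.00247) kept the call in every fit that left out 1 library. LRP6 thus passed the plain test in that line while lying below the library's own rise.

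The rapamycin series asks how editing builds up with time in HEK293T. With LSM14A-TRIBE-ID, CTNNB1 editing was 0.535% and 0.402% at 0 min, 0.918% and 0.948% at 15 min, 2.56% and 2.01% at 30 min, 5.23% and 4.43% at 60 min and 10.5% and 8.18% at 120 min. No 2 times overlapped. The log2 ratios to 0 min were 0.99 ± 0.27, 2.28 ± 0.25, 3.36 ± 0.25 and 4.31 ± 0.25, all called in a series where 52.7% of all gene tests were called higher. At 15 min the call was lost without library 2 of 0 min or either library of 15 min (0.80 to 1.01).

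AXIN1 began higher, at 1.08% and 2.67%, and reached 10.3% and 9.49% at 120 min, called from 30 min on (1.55, 1.85 and 2.41). LRP6 reached 1.79% and 2.66% at 30 min and stood at 2.35% and 1.75% at 120 min, from 0.984% and 0.728% (1.37, 1.25 and 1.25). APC stood at 2.36% and 1.82% at 60 min and 2.02% and 1.79% at 120 min, from 0.754% and 0.520% (1.73 and 1.60). The 3 LRP6 calls were lost without library 2 of 0 min or 1 library of their own time (1.02 to 1.25), and the 2 APC calls without library 2 of 0 min (1.44 and 1.31). In all, 12 of 28 member tests were higher and 0 lower, against 0.0611% of all gene tests called lower. TCF7L2, AXIN2 and RNF43 were not called at any time, RNF43 with single libraries at up to 13.4% from 9 of 67 reads.

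**Figure D4:**
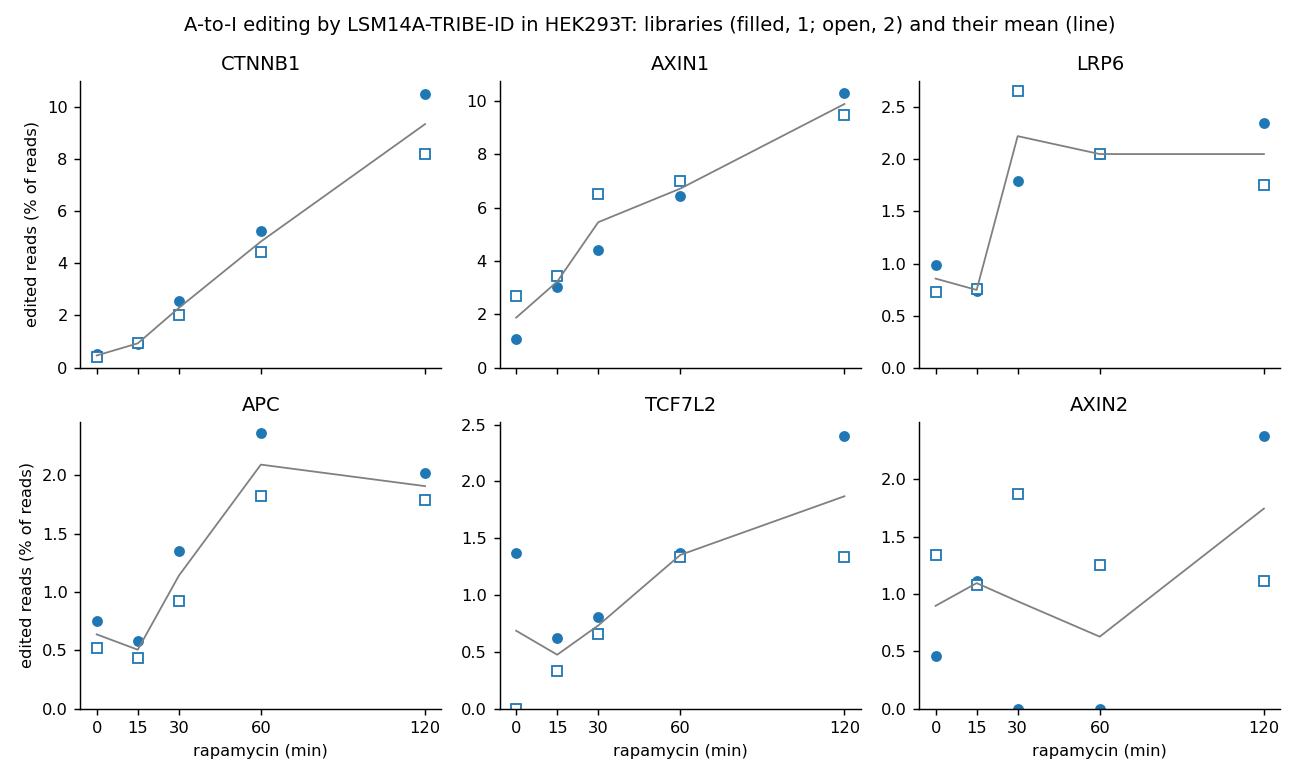
Edited reads as a percentage of reads against minutes of rapamycin in HEK293T with LSM14A-TRIBE-ID, for 6 of the 7 members listed there; filled and open points are libraries 1 and 2 and lines are their means, with a scale of its own per gene. CTNNB1 rises at each time to 10.5% and 8.18%, whereas LRP6 and APC stand at about 2% at 60 and 120 min.

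With DDX6-STAMP-ID 0 of 15 member tests were called in either direction at 15, 30 or 120 min. CTNNB1 was 0.106% and 0.307% at 0 min and 0.144% and 0.227% at 120 min, within the spread of the libraries. This series called 1 of 8332 genes per time (0.012% of tests, with 0% lower) by edgeR, with 400 to 453 genes at an unadjusted p under 0.05, so the absence of calls is not particular to the members.

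Between cell lines, 7 members were compared in the controls with both unfused editors. Against HEK293T, the HCT116 read level was higher for TCF7L2 (log2 ratio 1.69 ± 0.07), AXIN2 (1.11 ± 0.10), LRP6 (0.66 ± 0.04), CTNNB1 (0.38 ± 0.02) and APC (0.38 ± 0.05) and lower for AXIN1 (-0.73 ± 0.06). That is 5 of 7 higher and 1 lower, where edgeR called 42.5% of all genes higher and 43.1% lower, and RNF43 did not pass (0.22 ± 0.21). The effect of both fusions on editing differed between lines in 1 of 12 member tests, C-to-U editing of CTNNB1, where 4.59% of all gene tests were called.

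In HEK293T CTNNB1 was edited C-to-U in 1.38% and 1.82% of reads against 0.130% and 0.333% in its control, a pooled ratio of 6.91. In HCT116 it was 0.522% and 0.309% against 0 of 16529 control reads, a ratio of at least 23.0. The interaction was 4.83 ± 1.40 on the log2 scale (edgeR, adjusted p = 0.0202). With 0 edited reads in the HCT116 controls, this fitted value is no estimate of size. With limma on log2 scores the difference turned to -0.083. The edgeR call was lost without any of 6 of the 8 libraries, at 4.06 to 5.14. A-to-I editing of CTNNB1 in HEK293T was 6.43% and 6.26%, against 5.85% and 5.89% in HCT116. Its fitted interaction was -0.11 and was not called, but with 0 edited reads in both controls that value is no estimate of size.

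Translation efficiency was deposited as 1 log2 value per genotype and line, so no test was possible. The values are ratios and hold no DDX6 level, so the knockout label was not checked. In wild-type HCT116 TCF7L2 stood at -2.19 and CTNNB1 at -1.86, lower than all but 0.861% and 2.12% of 14974 genes. In DDX6-knockout cells they stood at -0.85 and -0.60, a rise of 1.34 and 1.26. Both therefore moved from the bottom of the distribution towards its middle, where the median of all genes went from -0.02 to 0.26.

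WNT16 had the widest difference, from -1.37 to 0.18 (1.55), wider than in 99.6% of genes. AXIN2 differed by 0.99, DKK1 by 0.93, RNF43 by 0.81, LRP6 by 0.31, AXIN1 by 0.29 and APC by 0.08. All 9 were higher in the knockout, as were 76.4% of all genes, with a median difference of 0.25. After centring on the median change of all genes with values in both genotypes, 8 were higher and APC lay at -0.08. In HEK293T 5 of the 7 members listed in its editing tables were higher, against 61.9% of the genes listed there, led by LRP6 (0.57). AXIN1 had the largest fall of the members (-0.29). WNT16 (-0.08) and DKK1 (0.73) have deposited values but lie outside those genes. CTNNB1 was again near the bottom in wild type (-2.37) but differed by 0.20 only, and TCF7L2 stood at 0.01 and differed by -0.02.

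**Figure D5:**
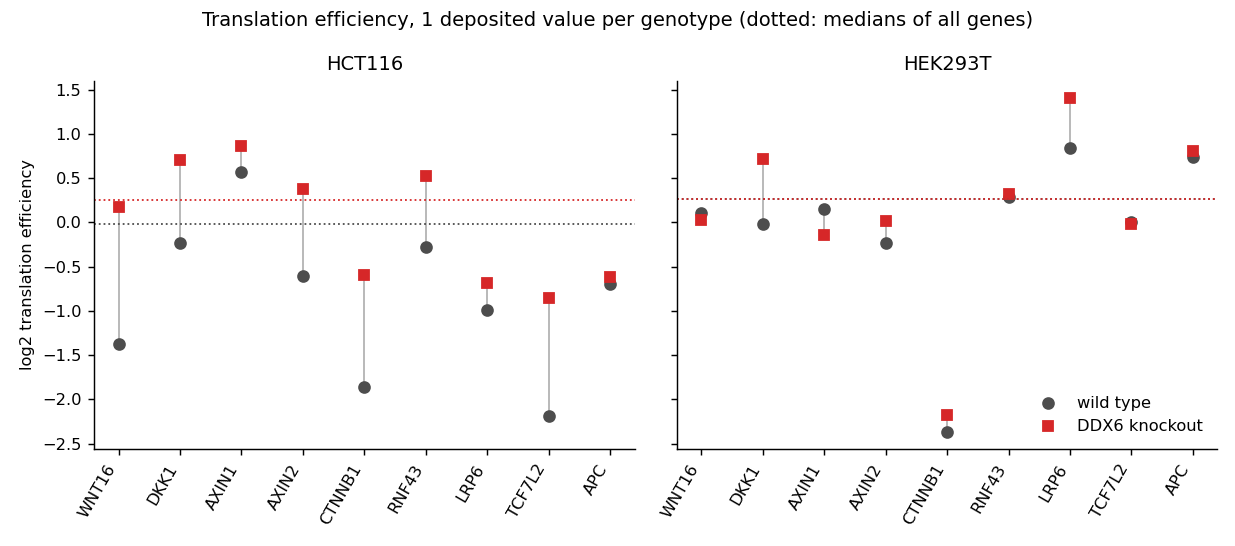
Deposited log2 translation efficiency of the 9 members in wild-type (circles) and DDX6-knockout (squares) cells of each line, 1 value each, with medians of all genes dotted. In HCT116 the knockout value lies above wild type for each member, most for WNT16 (1.55), TCF7L2 (1.34) and CTNNB1 (1.26).

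Nanopore tail lengths were listed for DKK1 and CTNNB1, 1 library per line. In HCT116 the 122 DKK1 reads edited by both fusions had a tail of 14.6 nucleotides, and the 2031 other reads 134. This difference of -119.78 chose the gene and was lower in 16 of 1094 genes. CTNNB1 had 141 in 133 dual-edited reads and 178 in 500 others, a difference of -37.3 close to the median of -36.3 over all genes. In HEK293T CTNNB1 had 109 in 20 reads and 131 in 66 (-22.4, median of all genes -31.5). All 3 values were shorter in dual-edited reads, as in 81.9% of HCT116 and 85.4% of HEK293T genes. Dual-edited reads made up 21.0% of CTNNB1 reads in HCT116 (95% exact binomial interval 17.9% to 24.4%) and 5.67% of DKK1 reads (4.73% to 6.73%).

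A list of 92 other Wnt pathway genes was read beside the members. In ADAR2dd fusions 155 of 304 gene tests were higher and 0 lower (51.0% against 49.2% of all genes), in APOBEC1 fusions 40 higher and 6 lower of 409 (9.78% against 15.3%), and with both fusions 204 of 279 (73.1% against 77.2%). In LSM14A-ADAR2dd the median log2 ratio was 4.19 for the list and 4.13 for all genes, and in APOBEC1-DDX6 1.08 and 1.59. By fitted log2 ratio the leading list genes in LSM14A-ADAR2dd were TLE5, a small relative of the TLE corepressors, with 278 of 3908 pooled reads edited against 0 of 6040, and DVL1, a Dishevelled adaptor, with 215 of 2939 against 0 of 3598. In APOBEC1-DDX6 they were CD44, a surface receptor and pathway target (58 of 6177 against 2 of 14852 reads), and RYK, a Wnt co-receptor (109 of 3920 against 6 of 2917). TLE2, a corepressor, fell by 2.82 ± 0.87 there, with 3 of 2443 against 12 of 1202 reads edited. With fewer than 10 edited control reads, TLE5, DVL1, CD44 and RYK came to the test only through edited fusion reads, so their lead is no support.

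Among their read levels, DKK4, a secreted inhibitor related to DKK1, was the largest or next largest fall of the list in each of the 10 APOBEC1 fusions, from -5.45 ± 0.69 in DDX6-APOBEC1 to -0.75 ± 0.29 in APOBEC1-PATL1. CD44 was among the 2 largest falls in 6 of them, at -1.19 to -1.79. All of these ratios share the APOBEC1-control line. Uninduced, DKK4 was lower than APOBEC1-control with both editors (-2.01 ± 0.23) and in ADAR2dd-control (-1.64 ± 0.23).

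By likeness over the 10 uninduced libraries, the genes most correlated with WNT16 were DSP (Pearson r = 0.999), CLDND1 (0.998) and TMEM170B (0.995) of 16229 genes. The correlation rests on the 4 lines: DSP ran only from 77.4 to 177 TPM, against 1.35 to 174 for WNT16. For CTNNB1, over the pooled editing levels of 20 single-editor fusions, they were ACLY (0.972), FAT1 (0.971) and MAP4 (0.962) of 9117 genes. The fusions share their control and the order of library-wide editing, and no test was made.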

How the data were processed

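For each editing library the authors deposited whole-number counts of edited and total reads per gene and an editing score as a fraction. The submitters' processing notes name hg38, STAR 2.7.9a, featureCounts 2.0.1, cutadapt 1.18 and FastQC 0.11.9. For site calling, translation efficiencies and tail lengths the method is not given in the sources used here. TPM of uninduced lines and log2 translation efficiencies were used as the authors deposited them.

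Samples were grouped by GEO's labels, and samples labelled XBP1 were not used here. For edited reads edgeR's quasi-likelihood test was used (version 4.0.16, reads as offset, 2 groups per fusion fit, all times of a series in 1 fit). Read levels were tested with edgeR and TMM factors (mean of at least 10 reads), and log2(TPM + 1) with limma 3.58.1 (mean of at least 1 TPM, against uninduced APOBEC1-control). All tests ran over all genes with Benjamini-Hochberg adjustment at 0.05, two-sided. A further edgeR fit added each library's edited share to the offset. The tests were checked on simulated data with known changes. Editing changes were simulated only in genes with ample edited reads in both groups. The check therefore does not cover calls whose control held 0 or few edited reads. Folds against 0 edited reads used 3 reads over the pooled control as a floor. The labels' replicate numbers paired read levels in LSM14A-TRIBE-ID (correlations of deviations 0.709 to 0.754) but not its edited shares (0.020 to 0.123), nor other series. Alternatives were DESeq2 1.42.0, limma on log2 scores, other filters, a replicate block and leaving out each library.

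Members and lists were chosen with earlier results of these data known. Named genes of the list are the 2 with the largest called log2 ratio in each direction per comparison. Counts of 6259071 to 13432692 reads per library limit genes with few edited reads most.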

Additional observations from a re-analysis of the deposited data

Results flagged for a closer look

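The effect of both fusions on C-to-U editing of CTNNB1 differed between HCT116 and HEK293T, by 4.83 ± 1.40 on the log2 scale in an interaction test (edgeR, adjusted p = 0.0202). HCT116 controls held 0 edited reads of 16529 and HEK293T controls 21 of 9114, while the fusion libraries stood at 0.309% to 0.522% and at 1.38% to 1.82%. The higher fitted effect thus belongs to the line with the lower edited share, and with 0 edited control reads there it is no estimate of size. With limma on log2 scores, after a pseudocount of 0.1%, the difference turned to -0.083, and leaving out 1 library ended the edgeR call in 6 of 8 fits.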

How the results depend on the processing

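Counts of member calls for ADAR2dd fusions (21), both fusions (31), read levels against the unfused editor (134), cell lines (6), uninduced TPM (16) and DDX6-STAMP-ID (0) stayed within 1.5 times under each alternative run. For APOBEC1 fusions the 19 calls became 9 with DESeq2, 9 with limma on log2 scores and 12 with the replicate block, and 12 to 17 without single libraries. For LSM14A-TRIBE-ID the 12 calls became 7 with DESeq2 and 7 to 14 without single libraries. The 25 calls above library-wide editing became 9 with limma and 8 to 25 without single libraries, and the 7 below became 4 with DESeq2 and 3 to 8. The 1 line difference became 0 with limma and 0 to 1. With limma on log2 scores 4 values reversed: the CTNNB1 line difference (-0.083), CTNNB1 relative to the library in 4E-T-ADAR2dd (-0.13) and in PATL1-ADAR2dd (-0.30), and DKK1 relative to the library with both fusions, A-to-I in HCT116 (-1.04). Limma adds a pseudocount of 0.1% to each score, above the HCT116 control levels behind these 4 values; the cause of these changes was not tested. Depth limits WNT16, RNF43 and AXIN2 most, whose edited reads were few.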
